A study of Homo sapiens with 24 samples.

Results

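The vanins are a family of 3 genes, VNN1, VNN2 and VNN3, which lie side by side on human chromosome 6. All probes named for one of them in the array files were taken, 5 of 41000 probes and 3 of 30142 genes. The family was chosen by its own silencing ratio, since VNN2 was higher in all 4 cell lines on FOXP1 silencing. That ratio is therefore given as a description, without a test.

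FOXP1, a forkhead transcription factor, was silenced in 4 established lines of diffuse large B-cell lymphoma (DLBCL). DB and K422 are labelled as the germinal centre B-cell-like (GCB) subtype, and HBL-1 and OCI-Ly3 as the activated B-cell-like (ABC) subtype. Cells received siFOXP1_308 (siFOXP1 #1), siFOXP1_309 (siFOXP1 #2) or the non-silencing siCtrl by nucleofection and were harvested after 48 h, in 3 independent experiments per line. On each of the 24 arrays, siFOXP1 RNA was labelled with Cy3 and siCtrl RNA of that line with Cy5, so the 6 arrays of a line are 3 for each siRNA. No array had the dyes swapped, so a dye bias of a probe and an effect of silencing cannot be told apart. Each line is a single culture model, and no untransfected cells are analysed here.

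Vanins are pantetheinases: they split pantetheine, a breakdown product of coenzyme A (CoA), into pantothenate, from which CoA is made, and the thiol cysteamine. VNN1 is a membrane-anchored enzyme best known from liver, gut and kidney, where it is a target of the nuclear receptor PPAR-alpha. VNN2 is known from neutrophils, where it sits on the cell surface near the beta2 integrins and takes part in adhesion and migration. VNN3 is listed by RefSeq as the transcribed pseudogene VNN3P.

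In the RefSeq annotation of GRCh38.p14, VNN1 spans chr6:132680849-132714055, VNN3P spans chr6:132722787-132734765 and VNN2 spans chr6:132743870-132763455. Gaps of 8731 and 9104 bases separate the neighbouring genes, and 0 other annotated genes lie wholly within either gap. The 5 probes of 60 bases are shown because every value of the family rests on them. No vanin probe shared a run of more than 8 bases with another vanin probe, in either orientation. The longest run that the VNN2 probe shared with any probe of the array was 15 bases, with a probe for KRT222P.

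VNN1 probe A_23_P255345, chr6:133046078-133046137 (hg18, minus strand): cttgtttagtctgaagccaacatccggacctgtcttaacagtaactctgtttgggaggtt
VNN1 probe A_24_P337700, chr6:133044836-133044895 (hg18, minus strand): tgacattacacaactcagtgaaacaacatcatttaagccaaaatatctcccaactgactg
VNN2 probe A_23_P122724, chr6:133106859-133106918 (hg18, minus strand): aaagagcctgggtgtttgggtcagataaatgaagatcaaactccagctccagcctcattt
VNN3 probe A_23_P214935, chr6:133087471-133087530 (hg18, minus strand): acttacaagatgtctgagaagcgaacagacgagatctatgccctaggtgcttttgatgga
VNN3 probe A_23_P398449, chr6:133097151-133097210 (hg18, minus strand): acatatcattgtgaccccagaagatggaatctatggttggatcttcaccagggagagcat

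Since the silenced protein binds DNA through a forkhead domain, the VNN2 promoter was searched for forkhead letters. The window below is RefSeq sequence, chr6:132763406-132763705 of GRCh38.p14 on the minus strand, with 250 bases before and 50 bases after the gene start. The letters TGTTTAC (in 3.42% of all 35116 promoters of this length), TGTTTAT (4.24%), TATTTAC (2.67%) and TATTTAT (4.93%) were searched on both strands, and 0 of the 4 were present, while 13.6% of promoters held at least 1 of them. The shorter core TGTTT, which overlaps the first 2 of these, was matched once, on the reverse strand at position 226 counted from the start of the window (capitals, as AAACA), and 44.4% of the promoters held it. A match or its lack is a description of these letters in this window and says nothing about binding.

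VNN2 promoter: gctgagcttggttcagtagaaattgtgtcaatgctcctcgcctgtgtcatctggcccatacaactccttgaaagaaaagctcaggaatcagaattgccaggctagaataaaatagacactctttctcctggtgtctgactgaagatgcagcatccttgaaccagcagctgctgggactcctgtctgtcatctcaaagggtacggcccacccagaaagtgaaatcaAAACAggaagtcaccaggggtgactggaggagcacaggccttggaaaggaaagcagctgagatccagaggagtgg

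The targeted gene was checked first. The FOXP1 probe was lower in the siFOXP1 channel on all 24 arrays, with a mean log2 ratio (siFOXP1 over siCtrl) of -1.998 ± 0.79 for DB, -1.34 ± 0.47 for K422, -1.74 ± 0.55 for HBL-1 and -1.96 ± 0.54 for OCI-Ly3 (SD, n = 6 arrays). With siFOXP1 #1 the ratio ran from -1.61 to -0.95 for DB, from -0.96 to -0.83 for K422, from -1.57 to -1.09 for HBL-1 and from -1.56 to -1.39 for OCI-Ly3. With siFOXP1 #2 it ran from -2.71 to -2.69, from -1.80 to -1.70, from -2.50 to -1.93 and from -2.51 to -2.34 in the same lines. The arrays of the 2 siRNAs did not overlap in any line, siFOXP1 #2 giving the lower FOXP1 in each. An array had 57.2% to 64.4% of its probes well above background in one channel or the other. The B cell markers MS4A1, CD79A, CD79B and PAX5 were well above background in siCtrl cells on every array, as were all 7 GCB markers in DB and K422 and all 8 ABC markers in HBL-1 and OCI-Ly3. The ABC markers IRF4, CCND2 and TNFRSF13B were so on 0 arrays of DB and K422, and the GCB marker MME on 0 arrays of HBL-1 and OCI-Ly3. The other 5 of the 8 ABC markers were so on every array of DB and K422. Of the 7 GCB markers, 3 (HBL-1) and 4 (OCI-Ly3) were so on every array of those lines. Detection thus separated the subtypes for some of these markers and not for others.

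VNN2 cleared the background limit in either channel of all 24 arrays, and it was higher with siFOXP1 than with siCtrl on every one of them. The line means of its log2 ratio were 1.097 ± 0.45 for DB, 0.98 ± 0.12 for K422, 0.45 ± 0.07 for HBL-1 and 0.98 ± 0.35 for OCI-Ly3 (SD, n = 6 arrays), or 2.14-fold, 1.97-fold, 1.36-fold and 1.97-fold. The order of the lines was thus DB, OCI-Ly3, K422 and HBL-1, and the first 3 overlapped. These values chose the family and carry no test, and the share of all genes called higher by the rule used for other genes below was 1.33% for DB, 2.34% for K422, 5.73% for HBL-1 and 2.8% for OCI-Ly3. With the background corrected by normexp and ratios centred on the median, without loess, the mean was 0.14 in HBL-1 and 0.76 in K422.

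In DB, the log2 ratios of VNN2 were 0.73, 0.93 and 1.91 with siFOXP1 #1 and 0.70, 1.15 and 1.16 with siFOXP1 #2, in the order of replicates 1 to 3. The array of replicate 3 with siFOXP1 #1 stood above the other 5. On it the processed signal was 605 for siCtrl and 2279 for siFOXP1, against 381 and 850 on the other array of replicate 3. Without replicate 3 the mean of DB was 0.88.

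In K422, the ratios were 1.01, 1.06 and 0.82 with siFOXP1 #1 and 0.96, 1.13 and 0.87 with siFOXP1 #2. The siRNAs overlapped, and replicate 3 was the lowest with either of them. In HBL-1, they were 0.42, 0.53 and 0.45 with siFOXP1 #1 and 0.47, 0.47 and 0.33 with siFOXP1 #2. All 6 lay below every array of K422, DB and OCI-Ly3, which had 0.63 as their lowest value. How many genes set HBL-1 apart in this way is not given here. In OCI-Ly3, the ratios were 0.63, 0.68 and 0.73 with siFOXP1 #1 and 1.07, 1.30 and 1.46 with siFOXP1 #2, so that here the 2 siRNAs did not overlap.

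**Figure D1:**
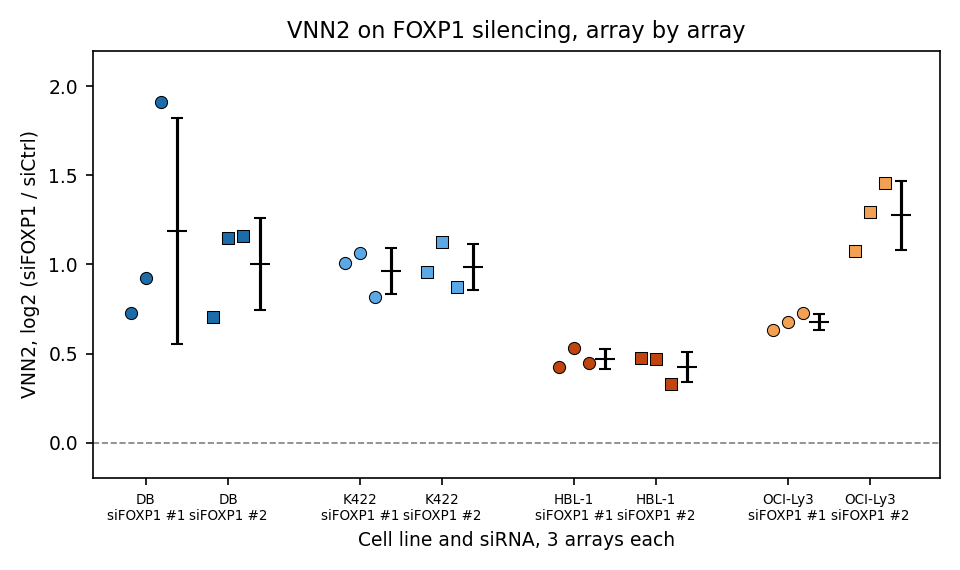
The log2 ratio of VNN2 (siFOXP1 over siCtrl, y axis) on each of the 24 arrays, by cell line and siRNA (x axis, circles for siFOXP1 #1 and squares for #2); bars are the mean and SD of 3 arrays. All points lie above 0, the 6 HBL-1 arrays lie between 0.33 and 0.53, and the OCI-Ly3 arrays separate by siRNA.

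The difference between the siRNAs was not used to choose the family and was tested across all genes with limma. In OCI-Ly3, VNN2 was 0.60 ± 0.21 log2 higher with siFOXP1 #2 than with #1 (SE, 95% interval 0.16 to 1.04), but this did not pass the adjustment over 30141 genes (adjusted p = 0.482), where 0.216% of genes were called. Without DB replicate 3 in the fit the adjusted p was 0.0431, and with the replicate number as a block it was 0.194. With normexp and median centring the difference was 0.95 (adjusted p = 0.665). The differences were -0.19 in DB (95% interval -0.63 to 0.26), 0.02 in K422 (-0.42 to 0.46) and -0.05 in HBL-1 (-0.49 to 0.40), with adjusted p from 0.896 to 1 and 0.395%, 0.189% and 0.216% of genes called. The one in DB was 0.10 without replicate 3. FOXP1 was lower with siFOXP1 #2 in each of the 4 lines. For VNN2 the arrays of the 2 siRNAs overlapped in DB, K422 and HBL-1. In OCI-Ly3 they separated, but the difference was not called, and the share of genes that separate in this way is not given here.

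**Figure D2:**
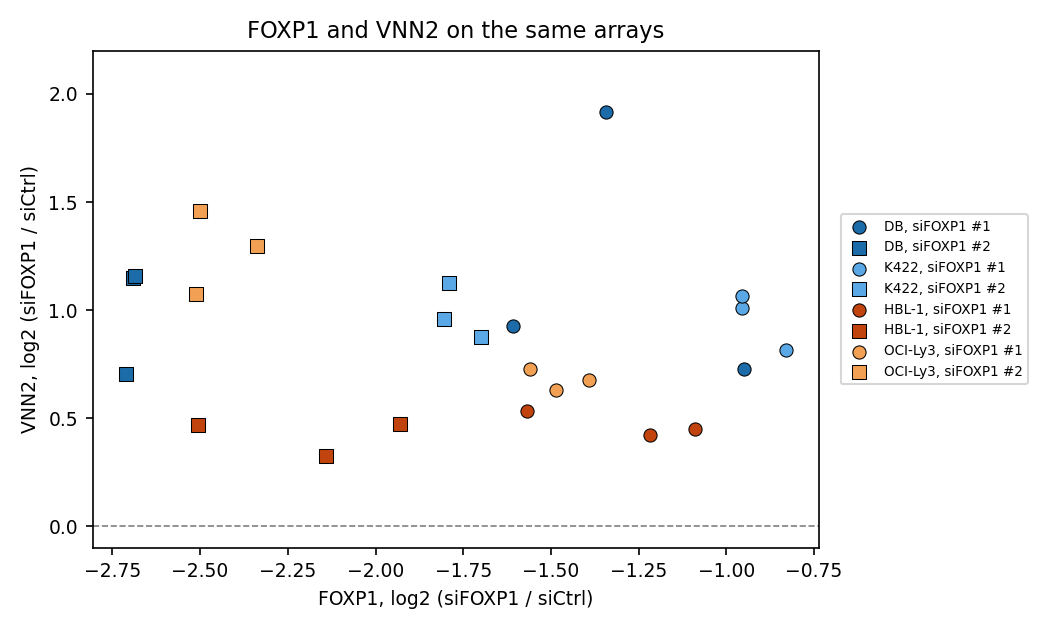
The log2 ratio of FOXP1 (x axis) against that of VNN2 (y axis) on the same 24 arrays, with a colour for each line and a marker for each siRNA. The HBL-1 arrays run from -2.50 to -1.09 for FOXP1 and stay between 0.33 and 0.53 for VNN2.

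Whether the lines differed in their VNN2 ratio was tested in the same fit. These comparisons use the ratios by which the family was chosen, so their p-values are not independent of that choice. HBL-1 was 0.53 ± 0.15 log2 below K422 (SE, 95% interval -0.84 to -0.22, adjusted p = 0.0298, where 9.92% of genes passed) and 0.53 ± 0.15 below OCI-Ly3 (-0.84 to -0.22, adjusted p = 0.0244, where 12.5% passed). In either comparison the 6 HBL-1 arrays lay below the 6 arrays of the other line, and how many genes separate in this way is not given. HBL-1 and K422 were scanned together (scan 2), whereas OCI-Ly3 was scanned with DB (scan 1), so line and scan cannot be told apart in the comparison with OCI-Ly3. On slide 6, the only slide with both HBL-1 and K422 (2 arrays each), the difference was -0.40.

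Leaving out replicates or adding a block ended these calls in several fits, while other fits kept them. With the arrays of the compared lines only, the adjusted p by limma was 0.000891 against K422 and 0.000863 against OCI-Ly3. After normexp and loess it was 0.00832 and 0.00471. The difference from K422 had an adjusted p of 0.0569 with the replicate number as a block and 0.0688 with the slide as a random block. It also missed the threshold without K422 replicate 1 or 2 (0.0851 and 0.144) and without HBL-1 replicate 1, 2 or 3 (0.102, 0.0570 and 0.123). The difference from OCI-Ly3 missed it with the slide as a random block (0.121), without HBL-1 replicate 1 or 3 (0.0864 and 0.1004) and without OCI-Ly3 replicate 2 or 3 (0.0755 and 0.109).

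OCI-Ly3 and DB differed by -0.12 (95% interval -0.43 to 0.19, adjusted p = 0.815, where 2.84% passed), and K422 and DB by -0.12 (-0.43 to 0.19, adjusted p = 0.739, where 4.79% passed, across scans). Without DB replicate 3 these were 0.10 and 0.10. On slide 2, which holds DB replicate 3 and OCI-Ly3 replicate 1, OCI-Ly3 was 0.68 below DB. The mean of the ABC lines was 0.71 and that of the GCB lines 1.04, a difference of -0.32 ± 0.10 (SE, 95% interval -0.55 to -0.10) that missed the threshold (adjusted p = 0.0668, where 8.3% of genes passed). Each subtype has 2 lines, the error is that of arrays within lines, and the ABC lines differed from each other by more than the subtypes did, so it compares these 4 lines and not the subtypes. It passed without DB replicate 1 (-0.42, adjusted p = 0.00981) and without DB replicate 3 (-0.21, adjusted p = 0.0324).

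The level of VNN2 without silencing was read from the siCtrl channel, as log2 of the processed signal relative to the 75th percentile of that array channel. Both arrays of a replicate were averaged, since they may carry the same control RNA. The order of the lines was K422 with 1.75 ± 0.20, OCI-Ly3 with 1.69 ± 0.20, HBL-1 with 1.14 ± 0.18 and DB with -0.21 ± 0.68 (SD, n = 3 control samples). K422 and OCI-Ly3 overlapped, HBL-1 lay below both, and DB was lowest. K422 and HBL-1 were read in scan 2 and the others in scan 1, so tests were made within a scan. The 3 control samples of DB were 0.56, -0.70 and -0.50, so replicate 1 stood above the other 2, and its 2 arrays also had the lowest VNN2 ratios of their siRNA.

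Within scan 1, OCI-Ly3 was 1.91 ± 0.28 log2 above DB (SE, adjusted p = 0.000187), a 3.75-fold difference in the limma fit over all genes, where 41.6% of genes passed. The values were 1.91, 1.52 and 1.65 in OCI-Ly3, all above the 3 of DB. On slide 2 the difference was 2.42. Within scan 2, HBL-1 was 0.61 ± 0.28 below K422 and did not pass in limma (adjusted p = 0.111, where 42.9% of genes passed). HBL-1 had 1.33, 0.97 and 1.11, and K422 had 1.94, 1.55 and 1.76. Neither pair of lines overlapped, but how many genes separate in this way is not given here. The difference between HBL-1 and K422 passed with the replicate number as a block (adjusted p = 0.0159) and without DB replicate 1 in the fit (adjusted p = 0.00839). On slide 6 it was -0.43. As processed signal, siCtrl VNN2 ran from 1900 to 2958 in K422, with a median of 2607, and from 381 to 1011 in DB, with a median of 528. With siFOXP1 the medians were 4827 in K422 and 1218 in DB. HBL-1 went from a median of 1878 to 2454 and OCI-Ly3 from 1704 to 3393. These signals were not scaled between arrays, and K422 and HBL-1 were read in another scan than DB and OCI-Ly3. They therefore do not rank the lines.

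**Figure D3:**
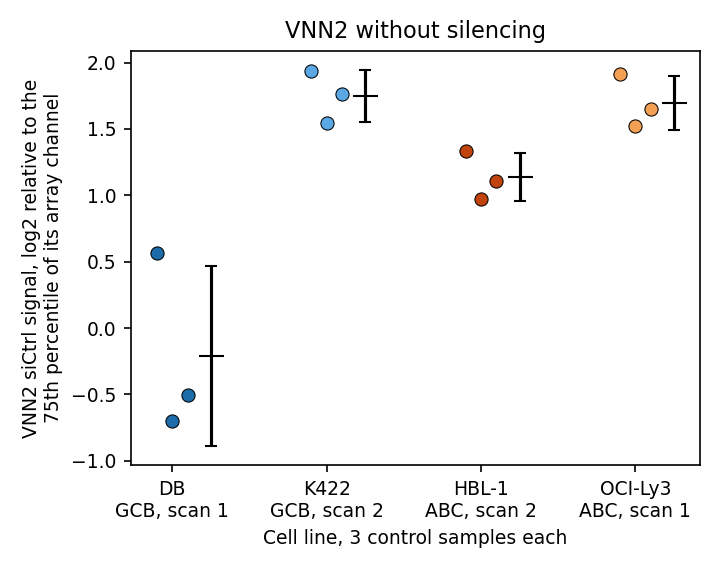
The siCtrl level of VNN2 (log2 relative to the 75th percentile of its array channel, y axis) in the 3 control samples of each line (x axis, with subtype and scan); bars are the mean and SD. DB lies lowest with -0.70, -0.50 and 0.56, and the samples of K422 and OCI-Ly3 overlap.

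VNN1, the enzyme of liver and gut, was near background. Of its 2 probes, A_23_P255345 was well above background in the siCtrl channel on 3 of 6 OCI-Ly3 arrays and on 0 of 6 in DB, K422 and HBL-1. In the siFOXP1 channel it was so on 4 of 6 OCI-Ly3 arrays and on 0 in the other lines. The second probe, A_24_P337700, was well above background in siCtrl on 1 OCI-Ly3 array, and in siFOXP1 on 2 OCI-Ly3 arrays and 1 HBL-1 array.

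In OCI-Ly3, the siCtrl signal of A_23_P255345 ran from 15.8 to 28.4, against 3.84 to 5.71 in DB, where it was not well above background on any array. The other lines were at 3.50 to 9.14 (K422) and 5.05 to 6.75 (HBL-1). No fold over DB is given, since the lowest signal that counted as well above background in DB lay above the mean of OCI-Ly3. Against K422 and HBL-1, which were read in the other scan, this probe gave lower bounds of 1.71-fold and 1.81-fold. The second probe gave no bound against any line, so these bounds rest on 1 probe. On silencing, the log2 ratios of A_23_P255345 in OCI-Ly3 were -1.05, -0.40 and -1.004 with siFOXP1 #1 and -0.46, 0.14 and 0.39 with siFOXP1 #2 (replicates 1 to 3). They spanned 0, as did those of A_24_P337700, from -1.13 to 2.08. The scanner software had set 30 of 48 VNN1 ratios to exactly 0, all of them in the other 3 lines.

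VNN3 was not well above background with either probe, in either channel, on any of the 24 arrays. Its processed signals stayed between 2.33 and 13.8, and 29 of its 48 ratios were set to exactly 0. Neither a level nor a direction on silencing can be given for it, or for VNN1 outside OCI-Ly3. Among the 3 genes, VNN2 was thus the one measured well above background in all 4 lines, and 1 probe stands for it.

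**Figure D4:**
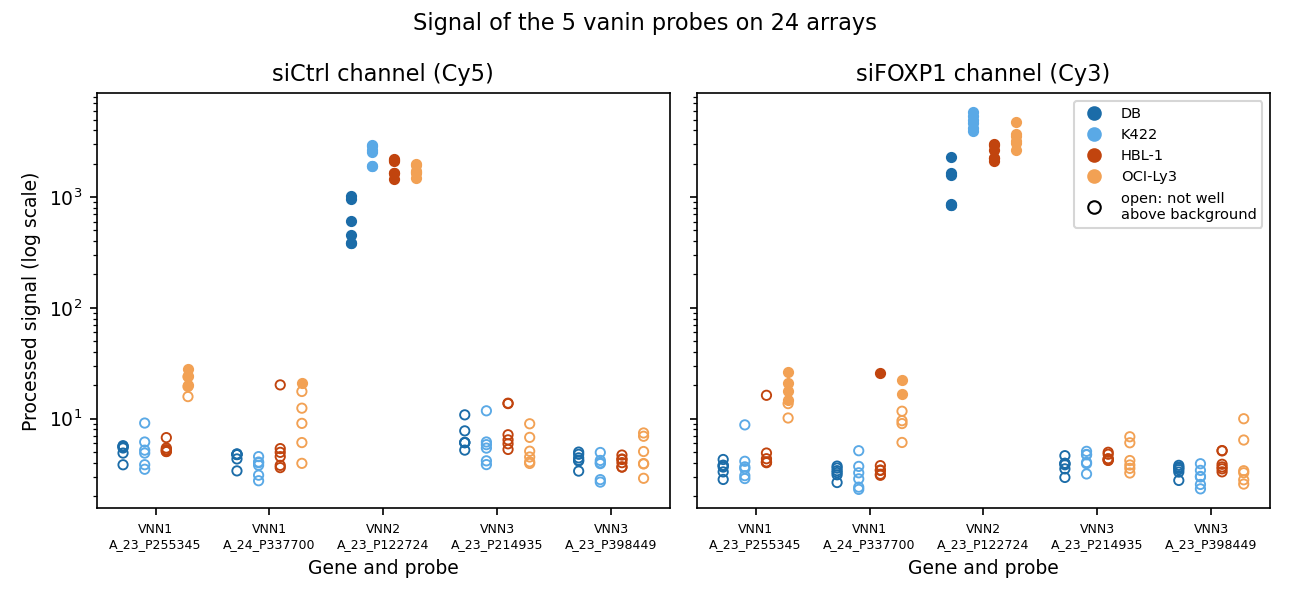
Processed signal (y axis, log scale) of the 5 vanin probes (x axis) on the 24 arrays, in the siCtrl channel (left) and the siFOXP1 channel (right); colours are the lines and open circles are not well above background. VNN2 lies between 381 and 2958 in siCtrl, all circles of VNN3 are open, and filled circles of VNN1 come from OCI-Ly3 and 1 HBL-1 array; signals of different probes are not on a common scale.

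Because VNN2 is best known from neutrophils, the myeloid and neutrophil markers were read beside it. FCGR3B, S100A9, CSF3R and MPO were well above background on 0 of 24 arrays in either channel, and so was LYZ on the arrays where it was read (1 outlier spot in DB was left out). S100A8 was well above it on 1 OCI-Ly3 array in siCtrl and on 2 in siFOXP1. ITGAM was so on 6 of 6 OCI-Ly3 arrays in both channels and on 2 (siCtrl) and 3 (siFOXP1) HBL-1 arrays. CD14, a monocyte marker that completes the 9 genes with CSF1R, was detected more widely, in siCtrl on 0 (DB), 6 (K422), 5 (HBL-1) and 3 (OCI-Ly3) arrays and in siFOXP1 on 5 arrays of DB and all 6 of each other line, with log2 ratios from -0.11 to 0.13 and no call. CSF1R, a macrophage receptor, was above background in all lines and fell in K422 (-0.99 ± 0.63, SD, n = 6 arrays, adjusted p = 0.000132 by limma), where 2.1% of genes were called lower. In siFOXP1, CSF1R was above background on 4 of 6 K422 arrays, and how its call depends on the processing is not given. LYZ was past the limits of a call in DB (0.62) and K422 (-0.78), but without signal above background no direction is given for it. The part of these markers in the VNN2 ratio was not tested. In bulk RNA, fewer cells that carry a transcript and less of it per cell cannot be told apart.

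Genes that make or use what vanins act on were taken from 5 lists, 52 genes of which 51 were on the array. A call needed an adjusted p under 0.05 over all genes and a change of at least 0.5 on the log2 scale, the limit of the study. In CoA synthesis (pantothenate kinases, COASY and the pantothenate carrier SLC5A6 among them), 0 of 11 genes were called in each line by limma or by the methods' t-test, with all 11 above background. By the adjusted p alone, 0 (DB), 5 (K422), 3 (HBL-1) and 3 (OCI-Ly3) genes passed, all with changes below 0.5, where 12.1%, 19.4%, 31.1% and 18.8% of all genes passed. An unadjusted p under 0.05 was found for 4, 7, 4 and 3 of them. Named after their values were seen, the largest was SLC25A42, a mitochondrial CoA carrier, in K422 (0.40, adjusted p = 0.00102), and PPCS, which joins cysteine to phosphopantothenate, was at 0.14 (K422), 0.17 (HBL-1) and 0.26 (OCI-Ly3; adjusted p = 0.0344, 0.00645 and 0.000585). Others were lower, AASDHPPT, which attaches phosphopantetheine to proteins, by -0.20 in HBL-1 and -0.23 in OCI-Ly3 (adjusted p = 0.00760 and 0.00479), and SLC5A6 by -0.18 in K422 (adjusted p = 0.0248). The median ratio of the list was between -0.05 and 0.11, beside 0.00 for all genes.

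The list of 8 genes drawn up for CoA and phosphopantetheine breakdown had 1 call, ENPP2, the secreted lysophospholipase autotaxin. It rose in HBL-1 (0.56 ± 0.16, SD, n = 6, adjusted p = 0.000730 by limma), where 5.73% of genes were called higher. Whether ENPP2 acts on CoA was not tested. Its ratio was below the size limit without HBL-1 replicate 1 (0.48) and after normexp and loess (0.29). Among 13 genes of cysteamine, taurine and glutathione handling, SLC7A11, the cystine carrier, fell in OCI-Ly3 (-1.21 ± 0.83, adjusted p = 0.00491), where 1.62% of genes were called lower. Its 6 arrays ran from -2.30 to -0.16, and without OCI-Ly3 replicate 1 the value was -0.81 (adjusted p = 0.113). With the arrays of OCI-Ly3 only, the adjusted p was 0.0688. In the PPAR axis, PDK4 (in K422, HBL-1 and OCI-Ly3, with 4.17% of genes called lower in HBL-1) and PPARGC1A (in OCI-Ly3) had ratios past the limits, but PDK4 was well above background on 1 K422 array and PPARGC1A on 2 OCI-Ly3 arrays in siFOXP1, so no direction is given for either.

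Of 10 beta2 integrins and ligands, 3 were called. ITGB2, the chain shared by all beta2 integrins, fell in DB (-0.55 ± 0.47, adjusted p = 0.00189, lower on 5 of 6 arrays) and K422 (-0.57 ± 0.13, adjusted p = 0.000714, 6 of 6), where 0.829% and 2.1% of genes were called lower. It was -0.38 ± 0.11 in HBL-1 and -0.36 ± 0.08 in OCI-Ly3, below the size limit, with adjusted p of 0.00879 and 0.0203. ITGB2 was lower on 23 of 24 arrays, which come from 3 experiments per line and are not independent. The share of genes that keep 1 direction on as many arrays is not given here. The value of ITGB2 in DB was -0.39 without replicate 1, -0.44 without replicate 2, -0.81 without replicate 3 and -0.35 after normexp and loess, and with the arrays of DB only, the adjusted p was 0.281.

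Of the partner chains, ITGAL, which forms LFA-1 with ITGB2, rose in HBL-1 (0.53 ± 0.14, adjusted p = 0.000185, 6 of 6 arrays). It was 0.45 without replicate 3, 0.23 after normexp and loess, and 0.14 with normexp and median centring (adjusted p = 0.442 by limma). In HBL-1, 5.73% of genes were called higher. ITGAX rose in OCI-Ly3 (0.62 ± 0.25, adjusted p = 0.00997, 6 of 6 arrays), where 2.8% of genes were called higher. Without OCI-Ly3 replicate 2 or 3 it was 0.65 and 0.51, with adjusted p of 0.0505 and 0.109. With normexp and median centring ITGAX was 0.46, below the size limit. ITGAM, the partner that VNN2 is known to lie near, was at 0.07 in OCI-Ly3, the only line with it above background on all arrays, and had no call there.

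By the hg18 coordinates of the files, 20 other genes have their probe within 1 Mb of the VNN2 probe, and 5 or 6 of them per line were well above background on at least 3 of 6 arrays. DB and K422 had 0 calls among the 20 by limma or the methods' t-test, with 3 at an unadjusted p under 0.05 in each by limma. Of all genes, limma called 1.33% (DB), 2.34% (K422), 5.73% (HBL-1) and 2.8% (OCI-Ly3) higher, and 0.829%, 2.1%, 4.17% and 1.62% lower. At these shares, 0 calls among 20 genes do not set the neighbours in DB and K422 apart from other genes. MOXD1, a monooxygenase-like gene 448 kb away, was called higher in HBL-1 (0.71 ± 0.56, adjusted p = 0.0124) and OCI-Ly3 (0.68 ± 0.21, adjusted p = 0.0265). The first missed the threshold without HBL-1 replicate 1 or 3 (0.0903 and 0.0708), and the second without OCI-Ly3 replicate 1, 2 or 3 (0.114, 0.0911 and 0.143) or with the replicate number as a block (0.0782). After normexp and loess the values were 0.16 and 0.40. TAAR2, a trace amine receptor, was called lower in OCI-Ly3 (-0.53 ± 0.42, adjusted p = 0.00503) and was -0.33 without replicate 2 and -0.11 after normexp and loess, and BC041996 was past the limits in HBL-1 without being above background.

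C6orf192, RPS12, STX7 and TAAR5, above background in all lines, had lower line means than VNN2 except for C6orf192 in HBL-1. C6orf192 (25.4 kb away) was 0.29, -0.04, 0.48 and 0.00 in the order DB, K422, HBL-1, OCI-Ly3. STX7, a syntaxin 284 kb away on the other side, was 0.15, 0.28, 0.18 and 0.03, and RPS12, a ribosomal protein gene 73.5 kb away, was 0.01, -0.30, -0.28 and -0.02. TAAR5, a trace amine receptor gene 155 kb away, was -0.25, 0.00, -0.01 and -0.26. In RPS12, 1 outlier spot in HBL-1 was left out. All were below the size limit, with an adjusted p under 0.05 for C6orf192 in HBL-1 (0.0444), STX7 in K422 (0.0137) RPS12 in K422 and HBL-1 (0.00212 and 0.00415) and TAAR5 in DB and OCI-Ly3 (0.00654 and 0.00314).

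**Figure D5:**
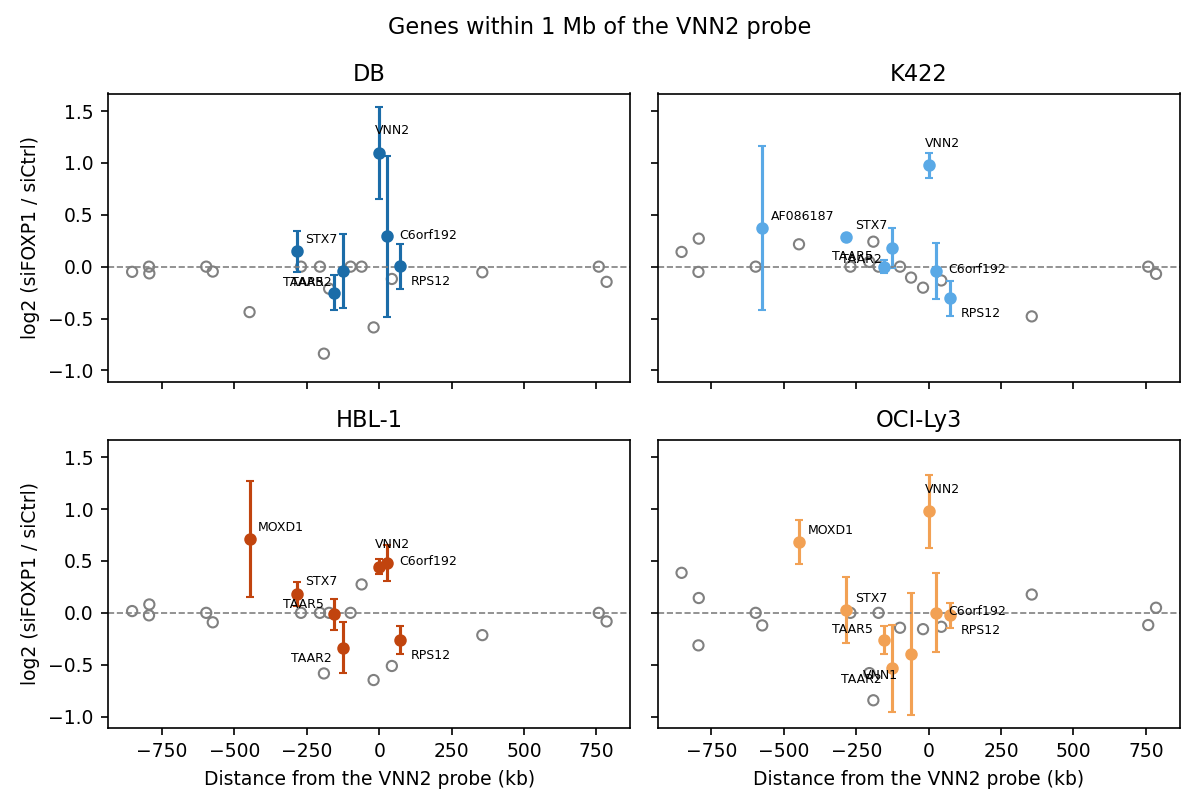
Mean log2 ratio of siFOXP1 over siCtrl (y axis) of each gene within 1 Mb against the distance of its probe from the VNN2 probe (x axis, kb), by line; filled points with SD bars (n = 6 arrays, 5 for RPS12 in HBL-1) are genes well above background in a channel on at least 3 arrays, open points the rest. VNN2 stands highest of the filled points in DB, K422 and OCI-Ly3, and in HBL-1 it lies beside C6orf192 and below MOXD1.

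The genes whose log2 ratio ran most like that of VNN2 over the 24 arrays, among 14994 above background in both channels on at least 18 arrays, were CDKN2D (Pearson r = 0.89), CHCHD7 (0.87), FAM111A (0.86), the transcript BI759100 (0.86) and RB1 (0.85). CDKN2D and RB1 encode an inhibitor of cyclin-dependent kinases and the retinoblastoma protein. Without the DB array with the highest VNN2 ratio, r was between 0.78 and 0.84 for the 5. The arrays share lines, replicates and slides, and the line means of CDKN2D were 0.39, 0.23, -0.52 and -0.01 in the same order, so likeness in pattern was not likeness in direction. For the siCtrl level over 12 control samples, the most alike of 15315 entries were the unnamed probe A_24_P530977 (0.98), DAPK2 (0.97), TTC8 (0.97), TACC1 (0.97) and MGC16121 (0.96), all with DB lowest.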

How the data were processed

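The authors hybridised siFOXP1 (Cy3) against siCtrl (Cy5) RNA and deposited Agilent Feature Extraction output (version 10.5.1.1 for scan 1, 10.7.3.1 for scan 2). The intensity that the authors deposited for each channel is background-subtracted and dye-normalised within the array (linear and loess). Their deposited log10 values are Cy5 against Cy3, and here they were converted to log2 of siFOXP1 over siCtrl. The authors also deposited a log2 matrix, which ran with these ratios (r per array 0.804 to 0.998) and was used as an alternative. Of 45015 spots, 1639 control spots and 113 to 469 outlier spots per array were left out. The brightest probe stood for a gene. At background the scanner software uses surrogates or sets a ratio to 0. The number of arrays limits precision.

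Limma 3.58.1 (R 4.3.3) fitted 8 line and siRNA means over all 24 arrays, or 12 averaged control samples for the siCtrl level, with Benjamini-Hochberg adjustment over all genes. The methods name t-tests and analysis of variance; the t-test was run as an alternative. The script was tested on simulated data: of 200 of 29172 genes changed by 1.5 log2, 95.5% were recovered for the DB ratio and 70.5% for the siRNA difference in OCI-Ly3. Smaller differences, such as the 0.60 of VNN2 between the siRNAs in OCI-Ly3, were not simulated, so their recovery is not known. The simulated noise was independent between arrays. Replicates are independent experiments, and same-numbered arrays of a line share a slide. Their deviations correlated at 0.0468 to 0.284 over all genes and at 0.151 to 0.632 over 14994 genes above background, so the numbers were taken to pair the 2 siRNAs of a line. Members and lists were chosen with earlier results of these data known. Named genes were the vanins, FOXP1, list genes called in a line, neighbours and the 5 most alike by correlation; CSF1R came from the marker list and was named after its value was seen. Columns of other samples numbered 0. Alternatives concerned background correction, normalisation, the matrix, outlier and dim spots, probe choice, blocks, samples in the fit and replicates left out.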

Additional observations from a re-analysis of the deposited data

Results flagged for a closer look

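The VNN2 ratio of 1.91 in DB (replicate 3, siFOXP1 #1) stood apart from the other 5 arrays of the line, with a gap of 0.6251 of the range against a limit of 0.625. Single arrays also stood apart for ITGAX in OCI-Ly3 (1.096), ITGB2 in K422 (-0.83) and PPARGC1A in OCI-Ly3 (-0.46). Chance alone marks about 1 in 20 such groups. By limma contrasts of the line means in the main fit, the VNN2 ratio differed between HBL-1 and K422 (-0.53) and between HBL-1 and OCI-Ly3 (-0.53). These ratios chose the family, so the p-values are not independent of that choice. With the slide as a random block, neither difference passed in limma (adjusted p = 0.0688 and 0.121).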

How the results depend on the processing

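The VNN2 ratio was above 0 in all 4 lines under each alternative run. That rise chose the family, so this is a description and no test of it. Some alternatives could not change the mean of a line, such as the mean over probes or leaving out replicates of other lines. With normexp and median centring the VNN2 ratio was 0.76 in K422 and 0.14 in HBL-1. Leaving out DB replicate 3 turned the siRNA difference in DB to 0.10 (range over left-out replicates -0.39 to 0.10), OCI-Ly3 minus DB to 0.10 (-0.31 to 0.10) and K422 minus DB to 0.10 (-0.31 to 0.10). OCI-Ly3 minus DB was also 0.011 after normexp and loess and 0.0245 after normexp and median centring, and -0.68 within slide 2. The siRNA difference in OCI-Ly3 ran from 0.53 to 0.68 over left-out replicates (adjusted p 0.0431 to 0.733) and was 0.95 with normexp and median centring (0.665).

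HBL-1 minus K422 no longer passed with normexp and median centring (-0.62, adjusted p = 0.115), the replicate block (-0.53, 0.0569) or the slide block (-0.50, 0.0688), and ran from -0.59 to -0.47 over left-out replicates (0.000518 to 0.144). HBL-1 minus OCI-Ly3 did not pass with the slide block (-0.46, 0.121) and ran from -0.59 to -0.47 (0.000505 to 0.109). The ABC minus GCB difference passed with dim probes removed (-0.32, 0.0436), where fewer genes were tested, and ran from -0.42 to -0.21 (0.00981 to 0.177). The siCtrl level of OCI-Ly3 minus DB was 2.42 within slide 2. That of HBL-1 minus K422 passed with the median as reference (-0.73, 0.0371) and at -0.61 with each array as a sample (0.00927), the replicate block (0.0159) or these lines only (0.0181), and ran from -0.71 to -0.52.

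Calls among the 5 lists (1 in DB, 2 in K422, 3 in HBL-1, 4 in OCI-Ly3) became, for DB, 0 with its own arrays only, normexp and median centring, the slide block or the methods' t-test, 2 with the mean over probes and 4 with the deposited matrix (0 to 2 over left-out replicates). For K422 they were 1 with its own arrays only, dim probes removed, the mean over probes, normexp with loess or median centring, the replicate block, the slide block or the t-test (1 to 3). HBL-1 had 0 after normexp and loess (1 to 4). OCI-Ly3 had 2 with its own arrays only, dim probes removed, normexp and loess or the t-test, and 0 after normexp and median centring (1 to 4). The main counts include PDK4 (every line but DB) and PPARGC1A (OCI-Ly3), for which no direction was given. By limma, HBL-1 had 5.73% of all genes called higher and 4.17% lower, and OCI-Ly3 had 2.8% and 1.62%. The shares were 2.34% and 2.1% for K422, and 1.33% and 0.829% for DB. Whether the list counts, out of 51 genes, differ from these shares was not tested. The 4 neighbour calls became 12 with the deposited matrix, 2 with own arrays only, normexp and median centring or the replicate block, 1 with the slide block or the t-test and 0 after normexp and loess (2 to 5). After normexp and median centring PDK4 was 0.0371 in K422 and 0.0107 in HBL-1, and BC041996 in HBL-1 was 0.0826, or 0.0061 with loess. The cause of these changes was not tested. VNN1 and VNN3 are limited by signal near background, and VNN2 rests on 1 probe and 1 dye orientation.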
